A study of Rattus norvegicus with 10 samples.

Results

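Blood and lymph vessels are lined by endothelial cells, and the 35 genes described here are used to recognise those cells: junction and adhesion proteins, receptors, secreted proteins and transcription factors. They were chosen as every probe set of the array whose single annotated gene symbol is one of the 35. A probe set is a group of short probes on the array that reports 1 transcript. Of the 35 genes, 32 had at least 1 probe set under their symbol, 53 probe sets in all among the 31042 tested, and Cdh5, Cd34 and Robo4 had none. The tested animals received N,N-dimethyl-p-toluidine (DMPT), an aromatic amine used as an accelerator of acrylic cements, at 120 mg/kg/day by corn oil gavage for 5 consecutive days, and the controls received corn oil (0 mg/kg/day). All were male F344/N rats, 5 to 6 weeks of age at the start, with 5 animals and 5 arrays in each group. Transitional epithelium of the nasal cavity was cut out by laser capture microdissection, and its amplified RNA was hybridised to 1 array per animal. Animals were housed 2 per cage, and cage mates are not named in the labels.

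Endothelial cells hold each other through adherens and tight junctions, and their growth is steered by vascular endothelial growth factor (VEGF), acting on the receptors encoded by Kdr, Flt1 and Flt4, and by the angiopoietins, acting on the receptor encoded by Tek. Transcription factors of the ETS and SOXF families set their identity. In the nose, a dense capillary and venous network lies in the lamina propria beneath the epithelium, so vessels are neighbours of the captured cells and not part of the epithelial sheet. Values are log2 expression as deposited, and a difference is DMPT minus vehicle on that log2 scale. The figure after ± is the standard error from the limma fit, or an SD where so marked. A gene is called where its Benjamini-Hochberg adjusted p-value, taken over the 31042 probe sets, lies below 0.05. Where a gene has several probe sets, the one with the highest mean over the 10 arrays stands for it.

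Of the 12 measured markers of epithelium, the labelled tissue, 12 gave a signal above that of the median probe set. The correlation between any 2 arrays lay between 0.959 and 0.992. Vehicle replicate 2 stood apart, with a mean correlation of 0.975 with the other vehicle arrays. A measure of RNA quality was the log2 signal of the 3′ control probe sets of GAPDH and beta-actin less that of their 5′ ones. A larger value means a stronger 3′ bias, the poorer side of this measure. The measure lay between 0.873 and 1.30 in DMPT animals and between 1.17 and 1.50 in vehicle animals.

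Of the 32 measured genes, 17 rose after DMPT, 0 fell and 15 did not pass, where 7.13% of all 14217 genes rose and 6.77% fell in the same limma fit. At an unadjusted p below 0.05 the counts were 20 higher and 1 lower, the lower one being Icam2. Of all 14217 genes, 1951 were higher and 2062 lower at that threshold in the limma fit. The differences of the 17 called genes ran from 0.47 for Nos3 to 2.55 for Esm1, and the folds, Esm1 aside, from 1.39 for Nos3 to 4.16 for Kdr. Of the 32 differences, 31 were above 0. Their median was 0.81, against -0.0052 over all genes. Counted by probe set, 20 of 53 rose and 0 fell in the limma fit, where 5.37% of all probe sets rose and 5.74% fell. At an unadjusted p below 0.05, 2 of the 53 were lower, as were 4212 of all 31042 probe sets. The groups did not overlap for 7 genes, all higher after DMPT, as was the case for 7.58% of all genes and, by probe set, for 5.82% of all probe sets. Since whole captured pieces were measured, more endothelial cells and more RNA per endothelial cell cannot be told apart. Without vehicle replicate 2 the count of higher genes was 16, where 6.86% of all probe sets rose. The count was 9 without DMPT replicate 3 or without vehicle replicate 4, where 3.66% and 4.18% of all probe sets rose. The RNA quality measure was lower on average in DMPT animals (1.10 ± 0.19) than in vehicle animals (1.28 ± 0.13, SD, n = 5 each). The 3′ bias was thus weaker on average after DMPT. With the measure as a covariate, 5 genes rose (Pecam1, Esam, Kdr, Esm1 and Apln), where 4.28% of all probe sets rose. The median difference of the 32 genes was then 0.78.

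**Figure D1:**
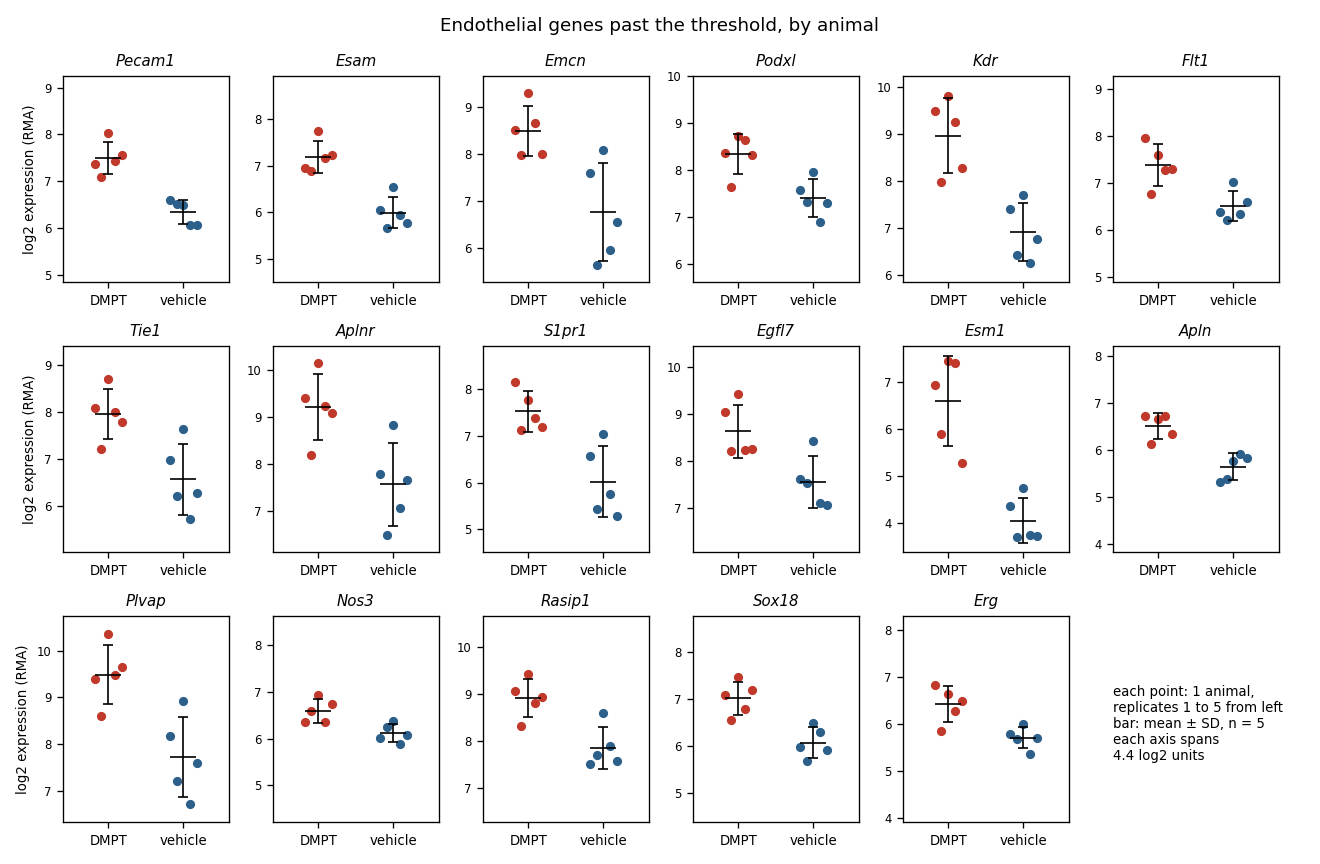
The log2 expression of the 17 called endothelial genes, with each point 1 animal (5 DMPT in red, 5 vehicle in blue) and the bars giving the mean and SD. In most panels DMPT replicate 3 and vehicle replicate 3 are the highest of their groups and DMPT replicate 2 is the lowest of the DMPT animals.

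Genes of junctions, adhesion and the cell surface numbered 7, and 4 of them rose. Pecam1 encodes an adhesion molecule concentrated at the contacts between endothelial cells, also present on platelets and leukocytes. Its values were 7.37, 7.10, 8.02, 7.43 and 7.56 in the DMPT animals, against 6.59, 6.51, 6.49, 6.07 and 6.07 in the vehicle animals. Every DMPT value lay above every vehicle value, and Pecam1 rose 2.22-fold (difference 1.15 ± 0.17, adjusted p = 0.0016). Esam, which encodes a tight junction adhesion molecule of endothelium and platelets, had values of 6.94, 6.87, 7.74, 7.16 and 7.22 after DMPT and 6.06, 5.68, 6.53, 5.95 and 5.77 with vehicle. The groups of Esam did not overlap either, and it rose 2.28-fold (1.19 ± 0.19, adjusted p = 0.00235).

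Emcn encodes endomucin, a sialomucin of capillary and venous endothelium. It was measured at 8.50, 7.97, 9.29, 8.66 and 8.01 in DMPT animals and at 7.58, 5.63, 8.08, 5.95 and 6.55 in vehicle animals. The vehicle animals were widely spread, with an SD of 1.05, and replicate 3 of them reached into the DMPT range. Emcn rose by 1.72 ± 0.44 (adjusted p = 0.0281), a call lost in 5 of the 10 omissions of 1 array (DMPT replicates 1, 3 and 4, vehicle replicates 4 and 5; adjusted p up to 0.0728). Podxl encodes podocalyxin, an anti-adhesive sialomucin of vessels that is also made by other cell types. Its values were 8.36, 7.63, 8.72, 8.64 and 8.32 after DMPT and 7.56, 7.31, 7.96, 6.88 and 7.29 with vehicle, and 4 of 5 DMPT animals lay above all vehicle animals. The difference was 0.93 ± 0.23 (adjusted p = 0.0225), and the call was lost without DMPT replicates 3 or 4 or vehicle replicate 4 (adjusted p up to 0.0607). The other 2 probe sets of Podxl differed by 0.45 and 0.49 and did not pass; all 3 carry the array's suffix for probes that can match more than 1 transcript.

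Cldn5 encodes the main claudin of endothelial tight junctions. It had values of 6.95, 5.65, 7.17, 5.49 and 6.49 in DMPT animals, and of 6.03, 5.20, 6.72, 5.98 and 5.28 in vehicle animals. DMPT replicates 1 and 3 lay above all vehicle animals and the other 3 did not, and the difference of 0.50 (95% interval -0.30 to 1.31) did not pass. Clec14a, a C-type lectin of endothelium, differed by 0.74 ± 0.34 (adjusted p = 0.199), or by 1.06 without vehicle replicate 3, where it passed (adjusted p = 0.0177).

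Icam2 was the only one of the 32 genes with a difference below 0. It encodes an adhesion molecule that binds leukocyte integrins and is carried by endothelium, leukocytes and platelets. Its brighter probe set read 9.53, 8.96, 7.82, 8.51 and 8.45 in DMPT animals, against 9.25, 9.91, 8.98, 9.95 and 9.88 in vehicle animals. DMPT replicate 1 lay within the vehicle range and the other 4 DMPT animals below it. The difference was -0.94 ± 0.30 (adjusted p = 0.0651), and that of the second probe set was -0.74 ± 0.29. Icam2 passed as lower without DMPT replicate 1 (adjusted p = 0.0204) or vehicle replicate 3 (adjusted p = 0.0415).

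**Figure D2:**
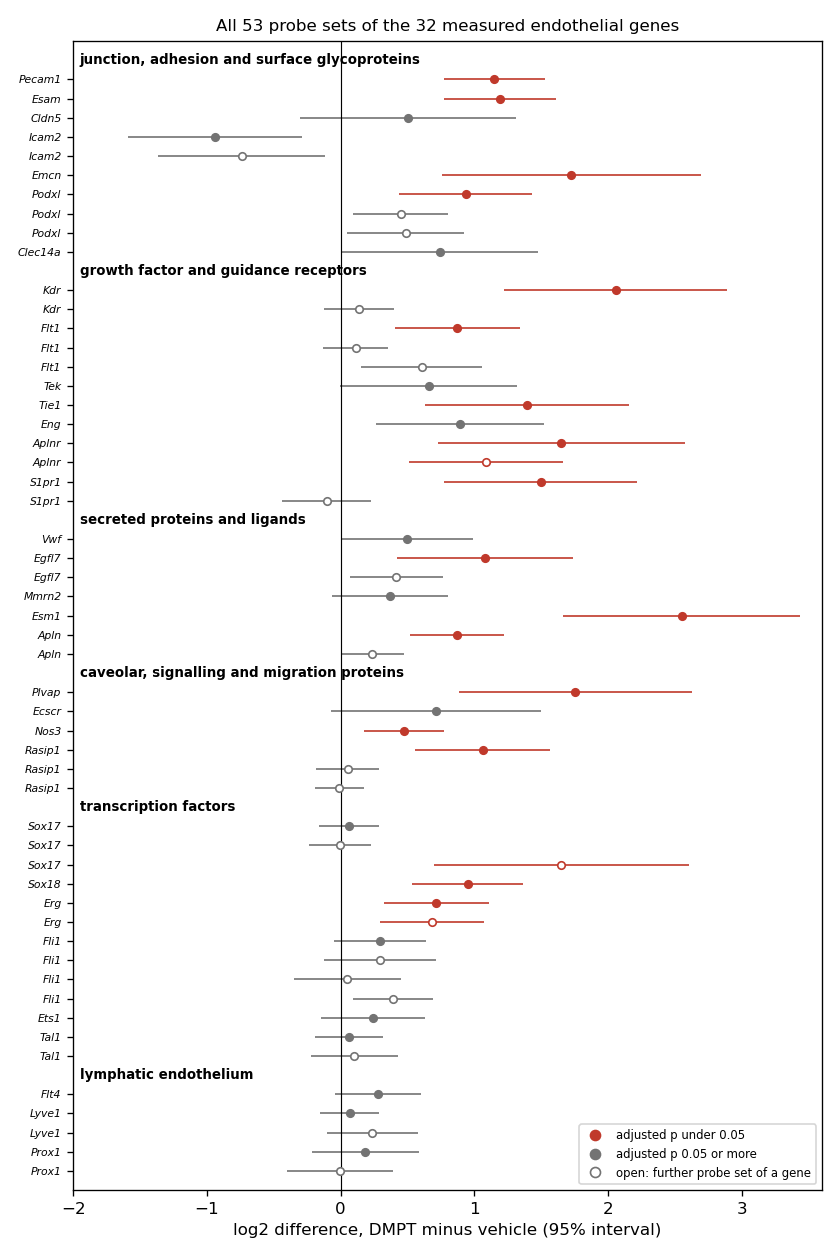
The log2 difference of each of the 53 probe sets with its 95% interval, by role, with filled points for the probe set that stands for a gene and open points for its further probe sets. The called probe sets, in red, lie to the right of 0, and genes such as Kdr, S1pr1, Rasip1 and Sox17 have 1 called probe set beside others near 0.

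Among growth factor and guidance receptors, 5 of 7 rose. Kdr encodes VEGF receptor 2, the main signalling receptor for VEGF-A. Its brighter probe set read 9.51, 7.99, 9.83, 9.27 and 8.27 in DMPT animals, against 7.41, 6.44, 7.70, 6.26 and 6.78 in vehicle animals. All 5 DMPT values lay above all vehicle values, and Kdr rose 4.16-fold (2.06 ± 0.38, adjusted p = 0.00563). The second probe set of Kdr, far dimmer, read between 5.53 and 6.14 after DMPT and between 5.56 and 5.89 with vehicle, and differed by 0.14 ± 0.12.

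Flt1 encodes VEGF receptor 1, which binds VEGF-A tightly and signals weakly. The brightest of its 3 probe sets had values of 7.96, 6.76, 7.61, 7.27 and 7.30 after DMPT and 6.37, 6.21, 7.02, 6.35 and 6.60 with vehicle. Only DMPT replicate 2 lay within the vehicle range, and the difference was 0.87 ± 0.21 (adjusted p = 0.0232), a call lost in 3 omissions (DMPT replicate 3, vehicle replicates 1 and 4; adjusted p up to 0.0621). The other 2 probe sets differed by 0.61 ± 0.21 and 0.11 ± 0.11 and did not pass.

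The angiopoietin receptor gene Tek and its orphan relative Tie1 did not share a call. Tie1 had values of 8.08, 7.23, 8.71, 7.99 and 7.80 in DMPT animals and of 6.99, 6.22, 7.64, 5.72 and 6.28 in vehicle animals. It rose by 1.39 ± 0.35 (adjusted p = 0.0249), with 4 of 5 DMPT animals above all vehicle animals. Tie1 lost its call in 5 of the 10 omissions (DMPT replicates 1, 3 and 4, vehicle replicates 4 and 5; adjusted p up to 0.0631) and with array weights (0.0515). Tek had values of 7.43, 6.40, 7.89, 6.93 and 6.55 after DMPT, against 6.51, 6.14, 7.17, 5.87 and 6.20 with vehicle. The groups of Tek overlapped in 3 DMPT animals, and the difference of 0.66 (95% interval -0.0016 to 1.32) did not pass (adjusted p = 0.203). Whether the differences of Tie1 and Tek differ from each other was not tested.

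Eng encodes endoglin, a co-receptor for ligands of the TGF-beta family on endothelium. It read 9.45, 8.01, 9.69, 8.94 and 8.64 in DMPT animals and 8.24, 7.81, 8.58, 7.77 and 7.84 in vehicle animals. DMPT replicate 2 lay inside the vehicle range and the other 4 above it. The difference was 0.90 ± 0.29 (adjusted p = 0.0691), and Eng passed without DMPT replicate 2 (1.13, adjusted p = 0.0155).

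Both members of the apelin pair rose. Aplnr encodes the apelin receptor, a G protein-coupled receptor of venous and sprouting endothelium. Its brighter probe set read 9.40, 8.20, 10.2, 9.25 and 9.09 after DMPT, against 7.80, 6.48, 8.83, 7.07 and 7.67 with vehicle. It rose by 1.65 ± 0.42 (adjusted p = 0.0276), and its second probe set also rose, by 1.09 ± 0.26 (adjusted p = 0.0215). The brighter one lost its call in 5 omissions (DMPT replicates 1, 3, 4 and 5, vehicle replicate 4; adjusted p up to 0.0685) and with array weights (0.0557), and the second in 4 (DMPT replicates 3 and 5, vehicle replicates 1 and 5; up to 0.0586). In each probe set 4 of 5 DMPT animals lay above all vehicle animals. The brighter probe set of Apln, the gene of the secreted ligand, read 6.72, 6.13, 6.67, 6.72 and 6.33 in DMPT animals and 5.31, 5.38, 5.77, 5.92 and 5.84 in vehicle animals. The groups of Apln did not overlap, and it rose by 0.87 ± 0.16 (adjusted p = 0.00546); its dimmer probe set differed by 0.24 ± 0.11 and did not pass. S1pr1 encodes a receptor for sphingosine 1-phosphate that keeps the endothelial barrier tight and is also present on lymphocytes. It had values of 8.14, 7.11, 7.76, 7.37 and 7.19 after DMPT, against 6.58, 5.44, 7.03, 5.76 and 5.29 with vehicle. Again the groups did not overlap, and the brighter probe set rose 2.82-fold (1.50 ± 0.33, adjusted p = 0.0138). The second probe set of S1pr1 read between 4.15 and 4.78 in DMPT animals and between 4.13 and 4.77 in vehicle animals, near the bottom of the range of the arrays, and differed by -0.10 ± 0.15.

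Beside Apln, 2 of the other 4 genes of secreted proteins rose. Esm1 encodes endocan, a proteoglycan secreted by endothelial tip cells, the cells at the front of a sprouting vessel. It had values of 6.95, 5.91, 7.45, 7.41 and 5.28 in DMPT animals, against 4.36, 3.69, 4.74, 3.74 and 3.71 in vehicle animals. The groups did not overlap, and the difference was 2.55 ± 0.41 (adjusted p = 0.00226). All vehicle values of Esm1 fell short of the lower quartile of every array, which ranged from 6.38 to 6.51. Their mean of 4.05 lay near those of Prl and Cyp2c11 (3.66 and 3.95 in vehicle animals), genes typical of other organs and named here after their values were seen. Whether Esm1 was above background in vehicle animals cannot be read from these values, and no fold is given for it. Among the other called genes, the vehicle means of Pecam1, Esam, S1pr1 and Nos3 (6.35, 6.00, 6.02 and 6.12) also fell short of that quartile range. So did those of Apln, Erg and Sox18 (5.64, 5.70 and 6.07). The 27 genes typical of other organs, 25 of them below the median signal, averaged between 6.38 and 6.61 in the vehicle animals. Whether those endothelial genes were above background with vehicle was not tested, and their differences and folds carry that limit.

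Egfl7 encodes a secreted matrix protein of endothelium. Its brighter probe set read 9.04, 8.22, 9.44, 8.23 and 8.26 after DMPT and 7.63, 7.54, 8.44, 7.12 and 7.07 with vehicle. Vehicle replicate 3 lay above 3 of the DMPT animals, and the difference was 1.08 ± 0.30 (adjusted p = 0.0405). Egfl7 kept its call only where DMPT replicate 2 or vehicle replicate 3 was the array omitted, with differences from 0.88 to 1.30 over the 10 omissions. The second probe set of Egfl7 differed by 0.42 ± 0.16 (adjusted p = 0.122) and did not pass. Vwf encodes von Willebrand factor, stored in the granules of endothelial cells and platelets. Its values were 8.39, 7.91, 8.27, 7.31 and 7.82 in DMPT animals, against 7.80, 7.31, 7.80, 6.87 and 7.42 in vehicle animals. DMPT replicate 4 lay within the vehicle range, and the difference of 0.50 ± 0.22 did not pass (adjusted p = 0.194). Mmrn2, a matrix protein that binds Clec14a, differed by 0.37 ± 0.20 (adjusted p = 0.284).

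Of 4 genes of caveolar, signalling and migration proteins, 3 rose. Plvap encodes the protein of the diaphragms that span fenestrae and caveolae of permeable vessels. It read 9.39, 8.60, 10.3, 9.47 and 9.64 after DMPT and 8.18, 7.23, 8.93, 6.73 and 7.61 with vehicle. DMPT replicate 2 lay below vehicle replicate 3, the other DMPT animals lay above all vehicle animals, and Plvap rose 3.38-fold (1.76 ± 0.40, adjusted p = 0.0158). Rasip1 encodes a Ras-interacting protein needed for the opening of vessel lumens. Its brightest probe set read 9.06, 8.32, 9.42, 8.81 and 8.92 in DMPT animals, against 7.50, 7.69, 8.59, 7.89 and 7.56 in vehicle animals. That probe set rose by 1.06 ± 0.23 (adjusted p = 0.0134), while its other 2 probe sets differed by 0.053 ± 0.11 and -0.0095 ± 0.083 and did not pass.

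Nos3, the endothelial nitric oxide synthase gene, had the smallest called difference. It read 6.35, 6.59, 6.94, 6.35 and 6.74 after DMPT and 6.02, 6.24, 6.37, 5.89 and 6.07 with vehicle. The difference was 0.47 ± 0.14 (adjusted p = 0.0447), with 3 of 5 DMPT animals above all vehicle animals, and it was called in 4 of the 10 omissions. Ecscr, a regulator of endothelial movement, differed by 0.71 ± 0.36 (adjusted p = 0.249).

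Of 6 transcription factor genes, 2 rose. Sox18, of the SOXF family, read 7.08, 6.56, 7.47, 6.79 and 7.18 in DMPT animals, against 5.98, 5.66, 6.48, 6.29 and 5.91 in vehicle animals. The groups did not overlap, and the difference was 0.95 ± 0.19 (adjusted p = 0.00862). Erg, an ETS factor that maintains endothelial identity, read 6.83, 5.84, 6.64, 6.28 and 6.49 after DMPT and 5.79, 5.68, 5.99, 5.36 and 5.69 with vehicle. It rose by 0.72 ± 0.18 (adjusted p = 0.0245), and its second probe set by 0.68 ± 0.18 (adjusted p = 0.0292). The first lost its call without DMPT replicates 1, 3 or 5 or vehicle replicate 4, and the second in 6 of the 10 omissions (all but DMPT replicate 2 and vehicle replicates 1, 3 and 4).

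The 3 probe sets of Sox17, another SOXF factor, disagreed. The dimmest of them read 6.63, 5.01, 7.60, 6.62 and 6.59 in DMPT animals, against 5.07, 4.17, 5.70, 5.17 and 4.09 in vehicle animals. It rose by 1.65 ± 0.44 (adjusted p = 0.0319), a call kept only where DMPT replicate 2 or vehicle replicate 3 was omitted. The brightest probe set, which stands for the gene in the counts above, differed by 0.061 ± 0.10, and the third by -0.0020 ± 0.11. With the mean of its 3 probe sets in place of the brightest, Sox17 passed (0.57, adjusted p = 0.0267). The ETS factors Fli1 and Ets1, which leukocytes also express, differed by 0.30 ± 0.16 and 0.24 ± 0.18, and the haematopoietic and endothelial factor Tal1 by 0.062 ± 0.12. None of these 3 genes passed with any of their 7 probe sets.

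No call was made among the 3 genes of lymphatic endothelium, for which the limma fit gave 0 at an unadjusted p below 0.05. Flt4, the gene of the VEGF-C receptor, differed by 0.28 (95% interval -0.042 to 0.60). The hyaluronan receptor gene Lyve1 differed by 0.069 (-0.15 to 0.29), and its second probe set by 0.24 (-0.10 to 0.58). Prox1, which sets lymphatic identity, differed by 0.19 (-0.21 to 0.58), and its second probe set by -0.0038 (-0.40 to 0.39). These intervals hold differences below the median of the 32 genes, 0.81. Whether lymphatic genes differ from the other members in response was not tested.

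Most members gave a weak signal. A probe set is termed bright here where its mean over the 10 arrays reached the median of all probe sets, 8.26, and dim otherwise. Signals of different probe sets are not on one scale of transcript number, so these terms place a probe set among the others and do not rank the genes. Of the 53 member probe sets, 6 were bright, and 3 of them rose: those of Aplnr, Plvap and Rasip1. With the RNA quality measure as a covariate, 0 of the 6 bright and 5 of the 47 dim member probe sets rose in the limma fit. In that fit 4.28% of all probe sets, bright and dim together, rose. Without the covariate, 7.51% of all bright probe sets rose and 8.01% fell. No bright member probe set fell in that limma fit. At an unadjusted p below 0.05, 1 was lower, as were 2606 of all 15521 bright probe sets. Eng, Ets1 and Icam2 were the bright ones that did not pass. Of the 47 dim member probe sets, 17 rose and 0 fell in the limma fit, where 3.23% of all dim probe sets rose and 3.48% fell. At an unadjusted p below 0.05, 1 of the 47 was lower, as were 1606 of all 15521 dim probe sets. The median difference was 0.98 for the bright probe sets of the members and 0.47 for the dim ones, against -0.0031 and -0.026 for all bright and all dim probe sets. With DMPT replicate 3 omitted 7 dim members rose, and with vehicle replicate 3 omitted 19 did.

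**Figure D3:**
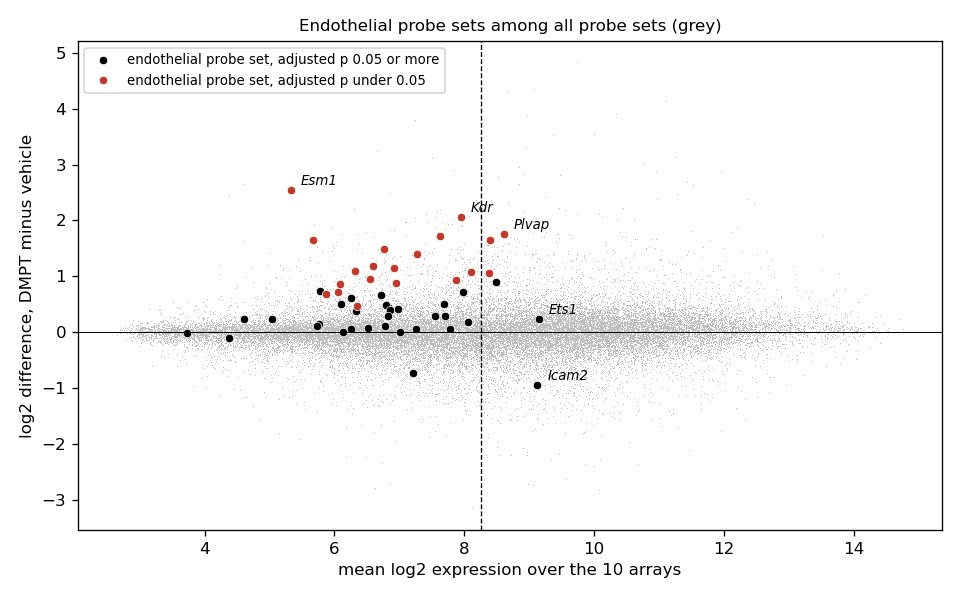
The log2 difference of every probe set against its mean log2 expression over the 10 arrays, with all probe sets in grey, endothelial probe sets in black (not called) or red (called), and the dashed line at the median level of 8.26. The red points lie between 0.47 and 2.55 and mostly left of the dashed line.

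The same animals were high or low for most of the genes. Among the 17 called genes, DMPT replicate 3 was the highest DMPT animal for 13 and DMPT replicate 2 the lowest for 15. Vehicle replicate 3 was the highest vehicle animal for 15 of the 17, and vehicle replicates 2 and 4 were the lowest for 6 each. The mean over the 32 genes, set against the vehicle mean, was 1.02, 0.38, 1.27, 0.76 and 0.72 in DMPT replicates 1 to 5. In vehicle replicates 1 to 5 it was 0.097, -0.20, 0.49, -0.24 and -0.15. DMPT replicate 2 thus lay below vehicle replicate 3, and the other 4 DMPT animals lay above all vehicle animals.

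After the group means were subtracted, the median Pearson correlation between pairs of the 17 called genes over the 10 arrays was 0.664, and 77.2% of the 136 pairs lay above 0.5. Over all 496 pairs of the 32 genes the median was 0.492, with 49.0% above 0.5. Over all pairs of the 14217 genes it was 0.0359, with 15.4% above 0.5. Such shared variation was not particular to the members: over pairs of 16 fibroblast and stromal genes, described below, the median was 0.397, with 35.8% above 0.5. Within the DMPT animals alone it was 0.592 for that list and 0.619 for the 32 genes, and within the vehicle animals 0.307 and 0.467. Over pairs of the 32 further endothelial genes described below it was 0.140, with 18.1% above 0.5. Tek, Eng and Tie1 followed the mean of the other members most closely, with correlations of 0.965, 0.950 and 0.942, although Tek and Eng were not called. Vwf and Cldn5, also not called, had 0.629 and 0.800. Icam2 ran against the others at -0.618, as did Prox1 at -0.437, and the brightest probe set of Sox17 at -0.0712 did not follow them. These correlations describe 10 arrays that share one normalization and one hybridised sample per animal.

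**Figure D4:**
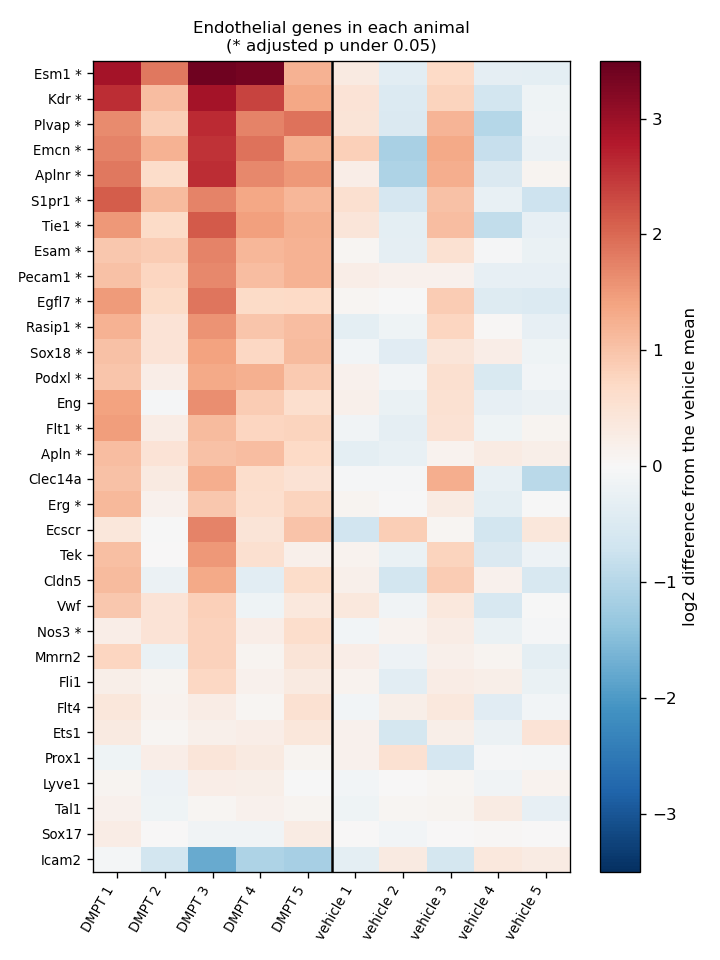
The log2 difference of each of the 32 genes from its vehicle mean in the 5 DMPT animals (left) and the 5 vehicle animals (right), with genes in the order of the group difference and called genes marked by an asterisk. DMPT replicates 1 and 3 are the deepest red columns, DMPT replicate 2 the palest of the DMPT animals, vehicle replicate 3 the reddest of the vehicle animals, and Icam2 alone is blue in most DMPT animals.

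A further list of 32 measured genes used elsewhere as endothelial markers moved less uniformly as a whole. Its dim genes mostly had positive differences and its bright genes mostly negative ones. Of these, 5 rose and 2 fell, with a median difference of 0.083; with the RNA quality measure as a covariate, 2 rose and 2 fell, with a median of 0.185. Stab1, a scavenger receptor of sinusoidal endothelium and of macrophages, rose by 0.73 ± 0.12 (adjusted p = 0.00286). Cd93, a surface lectin that binds Mmrn2, rose by 1.24 ± 0.26 (adjusted p = 0.00999), and Calcrl, a receptor for adrenomedullin and calcitonin gene-related peptide, by 0.94 ± 0.20 (adjusted p = 0.0116). Adgrl4 and Rasgrp3, named after their values were seen, were the other 2 that rose, by 1.01 ± 0.22 and 0.45 ± 0.10. Tspan7, a tetraspanin also found in neurons, fell by 0.71 on the log2 scale (adjusted p = 0.00834). Cav1, the caveolin gene, named after its values were seen, differed by -0.61 ± 0.16 (adjusted p = 0.0337). Tspan7 and Cav1 were bright, and the 5 genes that rose were among the 21 dim ones. Every dim gene but Gata2 (-0.18) and Stab2 (-0.34) had a positive difference. Every bright gene but Nostrin (0.056) and Palmd (0.055) had a negative one. Most of these differences did not pass, and their relation to signal level was not tested. Cav1 kept its call only where DMPT replicate 5 or vehicle replicate 2 was omitted.

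Genes of angiogenic and vessel-restraining factors were measured too, among them ligands, the co-receptors Nrp1 and Nrp2 and the hypoxia factors Hif1a and Epas1. Of these 21 genes, 2 rose and 3 fell, with a median difference of -0.0067; the higher ones numbered 4 with array weights, with array centring or without the dimmest quartile. Fgf1, a fibroblast growth factor gene, fell by 0.94 on the log2 scale, with means of 10.3 ± 0.21 after DMPT and 11.2 ± 0.10 with vehicle (SD, n = 5 each, adjusted p = 0.00037). Cxcl12, a chemokine of stromal cells, fell by 0.92 (adjusted p = 0.0123). Col18a1, the collagen that gives rise to the angiogenesis inhibitor endostatin, rose by 0.91 ± 0.16 (adjusted p = 0.00476), and Angptl4 rose by 0.59 ± 0.11 (adjusted p = 0.00483). Slit2, a guidance ligand named after its values were seen, differed by -0.55 ± 0.14 (adjusted p = 0.0277). It lost its call without DMPT replicates 1, 3 or 4 or vehicle replicates 1 or 5. Vegfa, the ligand of Kdr and Flt1, was named for its receptors and differed by 0.30 ± 0.12 (adjusted p = 0.156), with means of 11.1 ± 0.18 after DMPT and 10.8 ± 0.22 with vehicle (SD, n = 5 each). The angiopoietin genes Angpt1 and Angpt2, named for Tek, differed by -0.29 ± 0.16 and -0.030 ± 0.22 and did not pass.

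Markers of the other cell types around vessels were measured beside them. Of 16 genes of mural cells, which wrap vessels, 3 rose and 1 fell, with a median difference of 0.24. Notch3, a receptor of pericytes and of other cells, rose by 0.67 ± 0.14 (adjusted p = 0.0113), Kcnj8 by 0.47 ± 0.12 and Mcam by 1.05 ± 0.31 (adjusted p = 0.0487); Anpep fell by 0.59. Kcnj8 lost its call in 6 of the 10 omissions and Mcam in 8, and Anpep lost it without vehicle replicate 1. The means of Kcnj8, 4.63 after DMPT and 4.17 with vehicle, lay near the bottom of the range of the arrays. For Mcam, as for most called endothelial genes, replicate 3 was the highest animal of each group and DMPT replicate 2 the lowest DMPT animal. With the RNA quality measure as a covariate, 1 mural gene rose and 0 fell in the limma fit. The mean over the mural genes, set against the vehicle mean, ran from 0.099 to 0.48 in DMPT animals and from -0.19 to 0.22 in vehicle animals. Of 16 fibroblast and stromal genes, Pcolce, an enhancer of collagen processing, rose (1.66 ± 0.15, adjusted p = 6.78e-05) and 0 fell, with 1 lower at an unadjusted p below 0.05 and a median of -0.024. That list's mean ran from -0.33 to 0.48 in DMPT animals and from -0.35 to 0.32 in vehicle animals.

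Blood cells share some members with endothelium. Of 9 platelet genes, 0 were called in the limma fit, with 1 higher at an unadjusted p below 0.05. The mean of the 9 ran from -0.043 to 0.40 in DMPT animals and from -0.20 to 0.11 in vehicle animals. The platelet factor gene Pf4 differed by 0.39 ± 0.15 (adjusted p = 0.121). Of 10 erythrocyte genes, 0 were called, with 1 higher and 1 lower at an unadjusted p below 0.05; Bpgm and Rhd, those with the smallest p, differed by 0.27 ± 0.088 and -0.84 ± 0.32. Their mean spanned -0.14 to 0.36 in DMPT animals, against -0.14 to 0.20 in vehicle animals.

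Of 17 leukocyte genes, 4 rose and 1 fell, with a median of 0.031. The macrophage genes Cd68, C1qb and C1qc rose by 0.87 ± 0.16, 0.72 ± 0.16 and 0.61 ± 0.11; C1qa, named after its values were seen, rose by 0.59 and lost its call in 8 of the 10 omissions. The antigen presentation gene Cd74 fell by 0.46. The mean of the leukocyte genes ran from -0.11 to 0.29 in DMPT animals and from -0.089 to 0.097 in vehicle animals. Of the 12 epithelial genes, Krt5, Krt8 and Cldn7 rose, by 0.60, 0.44 and 0.57, and 0 fell, also at an unadjusted p below 0.05 in the limma fit. Their mean ran from 0.23 to 0.32 in DMPT animals and from -0.26 to 0.10 in vehicle animals. Of 10 genes of olfactory mucosa, 1 rose and 5 fell, with a median of -0.27. Ermn, Sec14l3, the nasal cytochrome P450 gene Cyp2a3 and the neuronal growth gene Gap43 fell by 2.38, 1.46, 0.50 and 0.79 on the log2 scale. Cyp2g1 and Adcy3, named after their values were seen, fell by 1.06 and rose by 0.52; Cyp2g1 lost its call in 7 of the 10 omissions and Adcy3 in 9. With the RNA quality measure as a covariate, 0 rose and 3 fell in the limma fit.

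As a gauge of signal from transcripts not expected in the nose, 27 genes typical of other organs were taken, of which 25 were dim. Of these, 0 rose and 3 fell in the limma fit, with 1 higher at an unadjusted p below 0.05 and a median of -0.042. The 3 were the islet amyloid gene Iapp, the cardiac troponin gene Tnni3 and the liver enzyme gene Tat, which fell by 0.76, 1.39 and 0.56; Iapp and Tnni3 were the 2 bright ones. Tnni3 lost its call without DMPT replicate 5 and Tat in 6 of the 10 omissions, and the count of lower genes ran from 1 without DMPT replicate 5 to 4 without DMPT replicate 1. The part of these other cells in the difference of the endothelial genes was not tested.

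**Figure D5:**
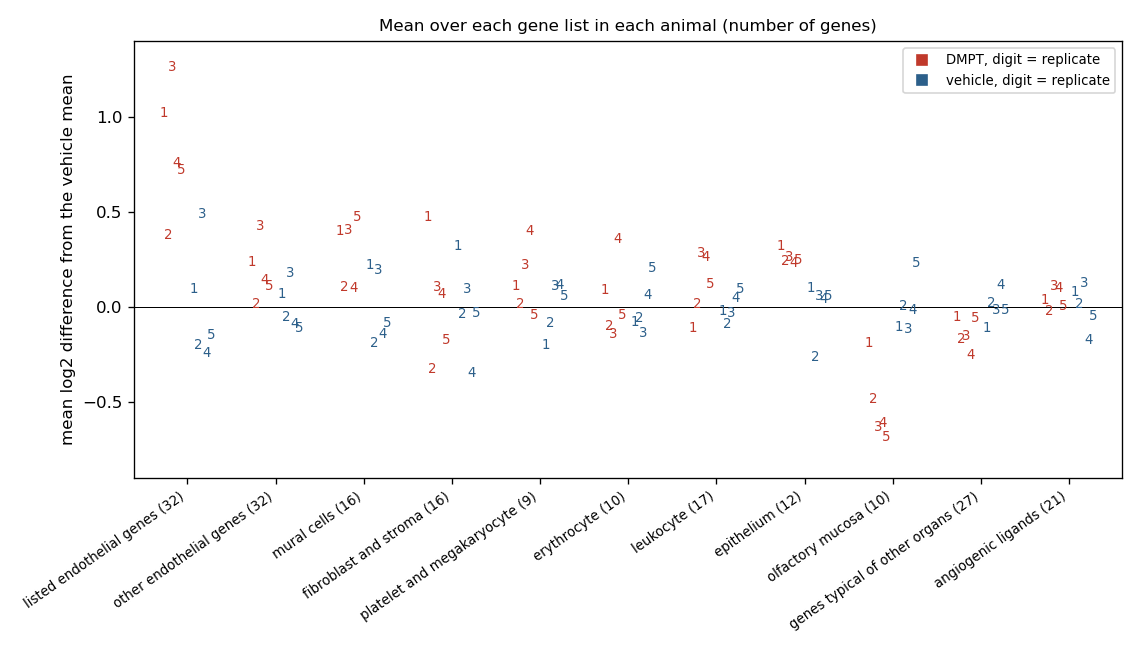
The mean log2 difference from the vehicle mean over the genes of each list in each animal, with red digits for DMPT replicates and blue digits for vehicle replicates. The listed endothelial genes have the largest difference between group means among these lists and run from 0.38 to 1.27 in DMPT animals and from -0.24 to 0.49 in vehicle animals; the olfactory genes lie lower in every DMPT animal than in any vehicle animal.

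Promoter sequences of RefSeq (assembly GRCr8), from 250 bases before to 50 bases after a gene's start, were at hand for 22 of the 35 genes. They were searched on both strands for CAGGAAG and CCGGAAG, letters recognised by ETS factors such as Erg, Fli1 and Ets1; the 2 motifs differ in their second letter, so no stretch can match both. Using the first window by coordinate for each gene, 5 of the 12 genes with a called probe set held a match (41.7%), and 1 of the 8 measured genes without one (12.5%, Lyve1). Of 27457 genes with a window, 20.5% held one. A match is a description of the letters and not a site. The windows of the 5 called genes that hold a match are shown 5′ to 3′ on the strand of the gene, with the match in capitals; CTTCCTG is CAGGAAG read on the other strand.
Plvap, chr16:18231230-18231529 (minus strand): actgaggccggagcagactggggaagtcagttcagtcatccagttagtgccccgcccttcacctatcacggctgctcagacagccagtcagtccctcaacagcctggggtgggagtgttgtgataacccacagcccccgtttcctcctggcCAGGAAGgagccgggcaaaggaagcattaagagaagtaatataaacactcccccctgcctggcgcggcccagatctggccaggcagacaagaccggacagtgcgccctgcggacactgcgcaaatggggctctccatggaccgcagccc
Erg, chr11:48251517-48251816 (minus strand): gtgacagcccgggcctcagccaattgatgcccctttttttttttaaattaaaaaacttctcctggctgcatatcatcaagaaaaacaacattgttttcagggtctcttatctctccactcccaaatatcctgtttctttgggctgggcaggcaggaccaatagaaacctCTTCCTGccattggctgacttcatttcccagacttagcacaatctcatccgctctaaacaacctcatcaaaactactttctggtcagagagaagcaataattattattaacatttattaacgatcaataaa
Emcn, chr2:228564289-228564588 (plus strand): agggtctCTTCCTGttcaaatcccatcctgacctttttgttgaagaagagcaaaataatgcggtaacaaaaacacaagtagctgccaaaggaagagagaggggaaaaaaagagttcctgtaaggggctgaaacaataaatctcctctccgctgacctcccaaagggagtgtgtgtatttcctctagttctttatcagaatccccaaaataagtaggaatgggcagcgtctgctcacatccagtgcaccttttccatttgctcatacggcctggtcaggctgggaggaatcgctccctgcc
Apln, chrX:132091197-132091496 (minus strand): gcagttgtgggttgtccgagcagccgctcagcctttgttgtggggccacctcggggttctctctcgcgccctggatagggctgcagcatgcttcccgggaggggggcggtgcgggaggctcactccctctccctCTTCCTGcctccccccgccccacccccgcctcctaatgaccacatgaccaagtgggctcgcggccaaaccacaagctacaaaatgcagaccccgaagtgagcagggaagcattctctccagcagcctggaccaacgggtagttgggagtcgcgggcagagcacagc
Egfl7, chr3:29805381-29805680 (plus strand): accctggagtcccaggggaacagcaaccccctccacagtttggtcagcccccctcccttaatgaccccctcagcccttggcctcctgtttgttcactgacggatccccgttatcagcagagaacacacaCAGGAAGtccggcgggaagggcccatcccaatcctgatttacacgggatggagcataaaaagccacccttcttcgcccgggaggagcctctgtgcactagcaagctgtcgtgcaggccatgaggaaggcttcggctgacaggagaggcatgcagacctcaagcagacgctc
The matches began 99 bases before the start of Plvap, 81 before that of Erg, 243 before that of Emcn, 116 before that of Apln and 121 before that of Egfl7. Kdr and Esm1 held no match of these letters in their windows.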

How the data were processed

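Log2 expression values per probe set, made by the authors with RMA (background correction, quantile normalization and summary over probes) per the submitters' processing notes, were used as deposited; its software and version are not stated. Of 31099 probe sets, 57 control probe sets were set aside, and 20826 of the rest had 1 symbol in the platform annotation. The number of arrays limits the precision. The limma package (3.58.1, R 4.3.3) fitted an intercept and a treatment term to every probe set with lmFit and eBayes, with no filter on low values and two-sided p-values. The fit was also run on simulated data with independent noise for each probe set. That run does not bear on counts of genes that vary together. Each p-value sets a group difference against the spread between animals. Animals were treated as independent, since cage mates are not known. The members and all lists were chosen with earlier results of these data known. Every member is named, with its value in each array where it was called or is a defining marker; of each other list, up to 4 called genes with the smallest p are named, or where none was called up to 2 genes with the smallest p, and others as marked. Samples with the same replicate number correlated weakly over all probe sets (correlations of deviations from -0.067 to 0.23), and the main fit did not pair them. Whether they pair for the endothelial genes was not tested. Alternatives left out each array or the dimmest quartile of probe sets, added the replicate number or the RNA quality measure, centred or weighted arrays, used a variance trend with robust estimation, or averaged a gene's probe sets. ORIOGEN, the test that the series' design text names, was not run.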

Additional observations from a re-analysis of the deposited data

Results flagged for a closer look

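Of 106 groups of 5 values tested, 4 held a value further from its nearest neighbour than Dixon's criterion allows, and chance flags about 1 group in 20. In the dim second probe set of S1pr1, DMPT replicate 5 read 4.78, with the next highest DMPT animal at 4.30. In the second probe set of Erg, DMPT replicate 2 read 5.71, with the next lowest at 6.24. In a probe set of Tal1, DMPT replicate 2 read 6.09, with the next lowest at 6.30. In the brightest probe set of Sox17, vehicle replicate 2 read 7.66, with the next lowest vehicle animal at 7.75.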

How the results depend on the processing

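The 17 higher genes remained called with each array centred on its median and with a variance trend with robust estimation. With array weights 14 of them remained, and with the means of all probe sets 18 genes were higher. Without each array in turn the count of higher genes ran from 9 to 18, that of higher probe sets from 9 to 22, that of bright ones from 2 to 4, that of dim ones from 7 to 19, and that of lower genes and of lower probe sets from 0 to 1 (Icam2, without DMPT replicate 1 or vehicle replicate 3). Of the 17 genes, Pecam1, Esam, Kdr, S1pr1, Esm1, Apln, Plvap, Rasip1 and Sox18 kept the call in all 10 omissions. Without DMPT replicate 3 or vehicle replicate 4 these 9 genes alone were called; higher probe sets then numbered 9 and 11, and 13 without DMPT replicates 1 or 4 or vehicle replicate 5. With the RNA quality difference as a covariate, 5 genes and 5 probe sets were higher (Pecam1, Esam, Kdr, Esm1 and Apln), 5 of them dim and 0 bright, while the median difference of the 32 genes was 0.78; the difference of Sox17 turned to -0.059 there, and that of Tal1 to -0.0078 without vehicle replicate 5. Neither was called, and without single arrays Tal1 ranged from -0.00784 to 0.132. Leaving out the dimmest quartile of probe sets left 24 genes to test, of which 13 were higher, with 13 probe sets, 10 of them dim. The replicate number as a block gave 20 higher genes and 24 higher probe sets, and 1 lower gene and probe set (Icam2, adjusted p = 0.043); it added Tek (0.0226), Eng (0.0113) and Vwf (0.0132) to the 17, all of which kept their call, and gave 8 higher genes among the 32 further endothelial ones. Of 5 DMPT animals, 2 correlated best with the vehicle animal of their own number. Of all probe sets, 5.37% rose in the main fit. With 1 array left out, the share ran from 3.66% (DMPT replicate 3) to 6.86% (vehicle replicate 2). It was 4.28% with the RNA quality covariate, 4.98% with the replicate block and 7.34% with array weights. It was 6.32% with array centring, 5.76% with the variance trend and 7.23% without the dimmest quartile. Of genes averaged over their probe sets, 8.98% rose. The cause of the changes between settings was not tested. Of the 53 probe sets, 47 lay below the median signal, which limits what can be said of their folds.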
